A study of Mus musculus with 24 samples.

Results

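Surface Toll-like receptors bind lipids and proteins of bacteria at the plasma membrane, and the 9 genes described here encode these receptors and the proteins that help them bind: Tlr1, Tlr2, Tlr4, Tlr5, Tlr6, Cd14, Ly86, Ly96, and Cd180. They were picked by gene name from the 23930 amplicons of the table and were followed through 24 RNA-seq libraries in 6 groups of 4. The libraries came from monocytes sorted from the spleens of C57BL/6 mice without any treatment, as a Ly6C hi subset and as a Ly6C low subset. The gate held CD11b+ cells without Ly6G, SiglecF, or NK1.1 on their surface, and Ly6C low cells were also positive for Fcgr4 (the labels call both subsets macrophages). Each subset was taken from WT mice, from Slc29a3-/- mice, which lack a lysosomal nucleoside transporter, and from Slc29a3-/- Tlr7-/- mice, which lack in addition an endosomal receptor for RNA. Both alleles were made by CRISPR, and the Slc29a3 allele carries an insertion with a stop codon in an early exon. The number of founder lines, the age and the sex of the mice, and whether libraries with the same number came from 1 mouse were not given in the sources used here. P values therefore measure the spread between these libraries.

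TLR2 pairs with TLR1 or TLR6 to bind bacterial lipopeptides, TLR4 binds lipopolysaccharide together with its coreceptor MD-2 (encoded by Ly96) after transfer by CD14, and TLR5 binds flagellin. RP105 (encoded by Cd180) resembles the outer part of TLR4 but has no signaling domain, and it is held at the surface by MD-1 (encoded by Ly86). In the spleen, RP105 and MD-1 are best known from B cells, and CD14 is a classic surface marker of monocytes and macrophages. TLR2, TLR4, and TLR5 signal through MyD88 toward NF-kB, and TLR4 signals in addition through TRIF. Ly6C hi monocytes are the classical, inflammatory subset and give rise to Ly6C low monocytes, which patrol vessels.

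On the mm10 genome (GENCODE vM21), Tlr1 lies at chr5:64924679-64933563 and Tlr6 beside it at chr5:64952031-64960097, both on the minus strand. Tlr2 lies at chr3:83836272-83841767 on the minus strand, Tlr4 at chr4:66827584-66930284 on the plus strand, and Tlr5 at chr1:182954788-182976044 on the plus strand. Ly96 lies at chr1:16688051-16709611 on the plus strand. Ly86 and Cd180 both lie on the plus strand of chromosome 13, at chr13:37345208-37419036 and chr13:102693558-102739629. Each value stands for 1 short amplicon of a gene, and where in the transcript it lies was not given in the sources used here, so that levels are compared between groups and never between genes.

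The 250 bases before an annotated start are shown for 3 genes, Tlr5 and Cd180 because they differed between the subsets in opposite directions in every genotype, and Tlr6 because its difference between the subsets depended on the genotype. Windows before a RefSeq (GRCm38.p6) start were available here for 6 of the 9 genes. This does not show that RefSeq lacks a start for the other genes. No exon of the same strand overlapped the 3 windows shown. Each is written in the direction of transcription, with letters in capitals where a motif was matched. The window of Tlr5 is chr1:182954538-182954787 (plus strand), that of Tlr6 is chr5:64959167-64959416 (minus strand, inside the gene, between exons), and that of Cd180 is chr13:102693297-102693546 (plus strand).
Tlr5: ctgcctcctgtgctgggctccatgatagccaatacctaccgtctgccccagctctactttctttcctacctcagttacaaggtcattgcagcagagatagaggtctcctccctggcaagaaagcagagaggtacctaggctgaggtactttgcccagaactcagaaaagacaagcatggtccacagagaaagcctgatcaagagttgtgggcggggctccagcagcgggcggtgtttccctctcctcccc
Tlr6: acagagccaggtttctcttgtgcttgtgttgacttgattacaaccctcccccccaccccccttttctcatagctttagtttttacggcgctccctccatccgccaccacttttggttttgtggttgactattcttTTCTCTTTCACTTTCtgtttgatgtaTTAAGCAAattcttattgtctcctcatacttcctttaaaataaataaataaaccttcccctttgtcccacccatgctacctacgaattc
Cd180: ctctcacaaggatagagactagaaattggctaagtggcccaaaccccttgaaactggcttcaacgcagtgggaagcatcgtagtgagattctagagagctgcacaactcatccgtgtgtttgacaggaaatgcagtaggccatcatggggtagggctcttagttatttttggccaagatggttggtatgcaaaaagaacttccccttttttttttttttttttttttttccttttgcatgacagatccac
The motifs searched on both strands were GAGGAA (PU.1), TTGCNNAA (C/EBP), GGANTTTCC (NF-kB), and GAAANNGAA (interferon-stimulated response element), which 23.3, 9.6, 1.1, and 7.1% of 32851 promoter windows of this length hold. The Tlr6 window held 2 overlapping matches of GAAANNGAA, which begin 115 and 109 bases before the start, and 1 match of TTGCNNAA 89 bases before it, all on the opposite strand. The windows of Tlr5 and Cd180 held none of these letters. RefSeq held another start for Tlr6, with a window at chr5:64960049-64960298 that overlaps a Tlr6 exon, and for Cd180, with a window at chr13:102693308-102693557. Those windows, which are not shown, held no match of any of the motifs.

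All 9 genes passed the filter of 1 RPM (reads per 1000000 reads of a library) in 4 libraries, in each subset and over all libraries. The libraries held 12311069 to 14572317 reads each, as inferred from the step between low values, and 0 reads allows up to 3 reads, or 0.206 to 0.244 RPM (counting error only). The amplicons of the mutated genes check no label, since where they lie relative to the mutations was not given: Slc29a3 stood at 127 to 173 RPM in Slc29a3-/- and 163 to 225 RPM in WT Ly6C hi monocytes, and Tlr7 at 259 to 345 RPM in Slc29a3-/- Tlr7-/- and 210 to 336 RPM in WT. The subset markers followed the labels. The 6 measured genes of the Ly6C hi list summed to 3430 to 9350 RPM in Ly6C hi and 92.1 to 394 RPM in Ly6C low libraries, and the 9 genes of the Ly6C low list to 1420 to 4170 RPM and 9090 to 17100 RPM.

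WT replicate 4 of each subset stood apart from WT replicates 1 to 3. Replicates 1 to 3 carry barcodes 11 to 16, whereas WT replicate 4 and all mutant libraries carry barcodes 24 to 46. Over all filtered genes the distance between WT libraries (Euclidean, log2 scale) was at most 25.6 among replicates 1 to 3 and at least 65.6 to replicate 4 in Ly6C hi, and 46.1 and 69.2 in the Ly6C low subset. The barcode range and the WT genotype can be told apart only through WT replicate 4, so results against WT that rest on this choice are given with all 4 WT libraries, with WT replicates 1 to 3 alone, and with WT replicate 4 alone.

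**Figure D1:**
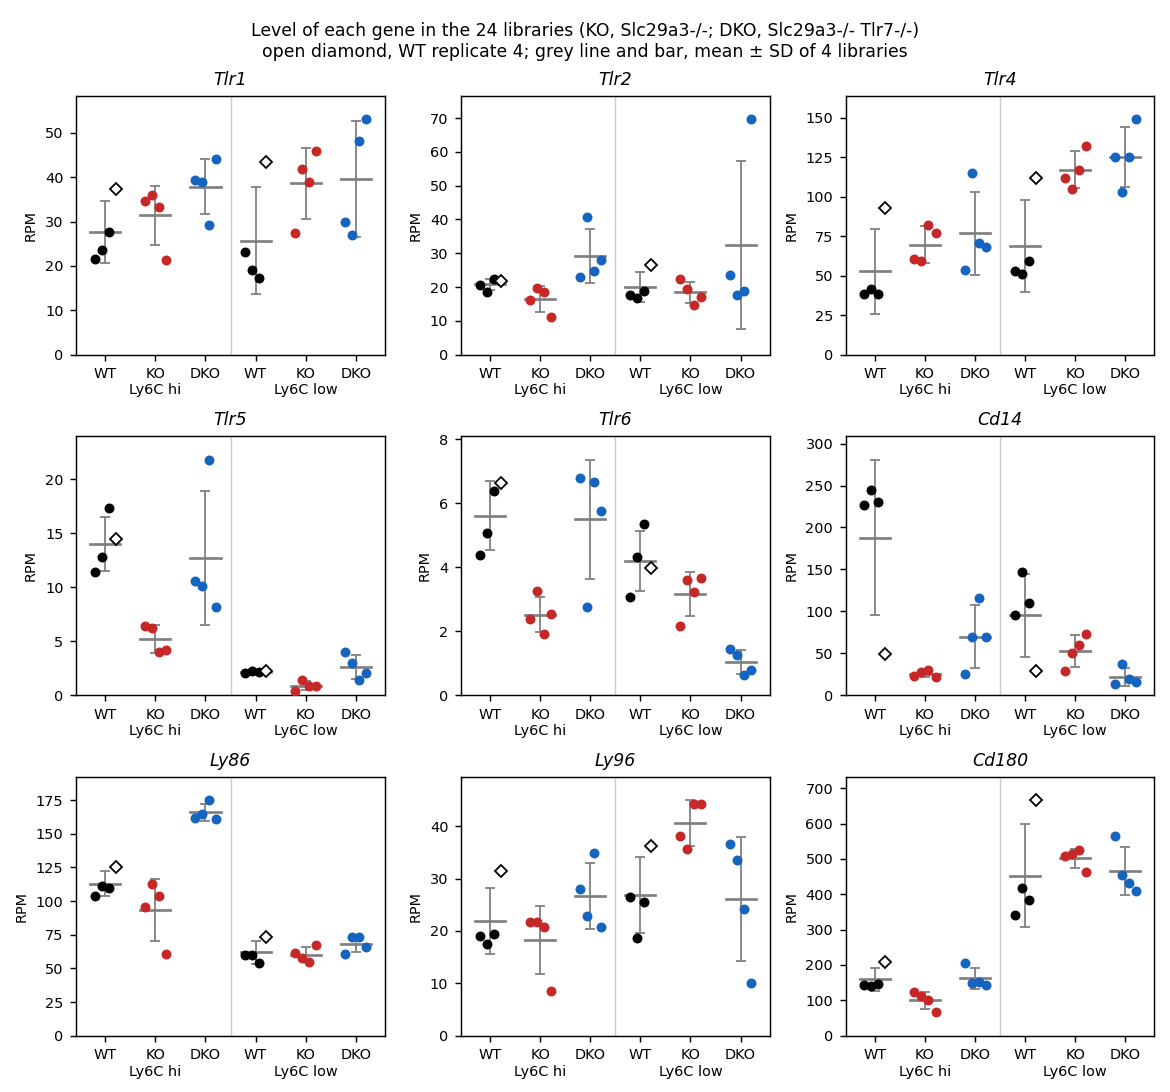
Level of each gene in RPM (vertical axis, linear, starting at 0) in the 24 libraries, with the 3 genotypes of Ly6C hi monocytes on the left and of Ly6C low monocytes on the right of each panel. Points are libraries, open diamonds are WT replicate 4, and grey lines with bars are means with SD (n = 4). Within each genotype all Tlr5 points were higher and all Cd180 points lower in Ly6C hi than in Ly6C low monocytes, and the Cd14 diamonds lie at 48.8 and 28.5 RPM, below the other WT points.

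The subsets differed in Tlr5, Ly86, and Cd180 in every genotype. Calls required more than a 1.5-fold difference together with an adjusted P under 0.05 (limma on log2(RPM + 1), Benjamini-Hochberg over all genes tested). In WT, 2 of the 9 genes were called higher in Ly6C hi monocytes (Tlr5 and Ly86) and 1 lower (Cd180), where 25.9% of all 11042 genes tested were called either way. In Slc29a3-/-, Tlr5 and Ly86 were called higher and Tlr4, Ly96, and Cd180 lower, 5 of 9, where 35% of all genes were called. In Slc29a3-/- Tlr7-/-, Tlr5, Tlr6, Cd14, and Ly86 were called higher and Tlr4 and Cd180 lower, 6 of 9, where 28.3% of all genes were called. Tlr1 and Tlr2 were called in none of the 3 genotypes. The libraries of the subsets did not overlap for 3, 4, and 4 of the 9 genes in the 3 genotypes, where 33.8, 48.7, and 24.7% of all genes did not.

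**Figure D2:**
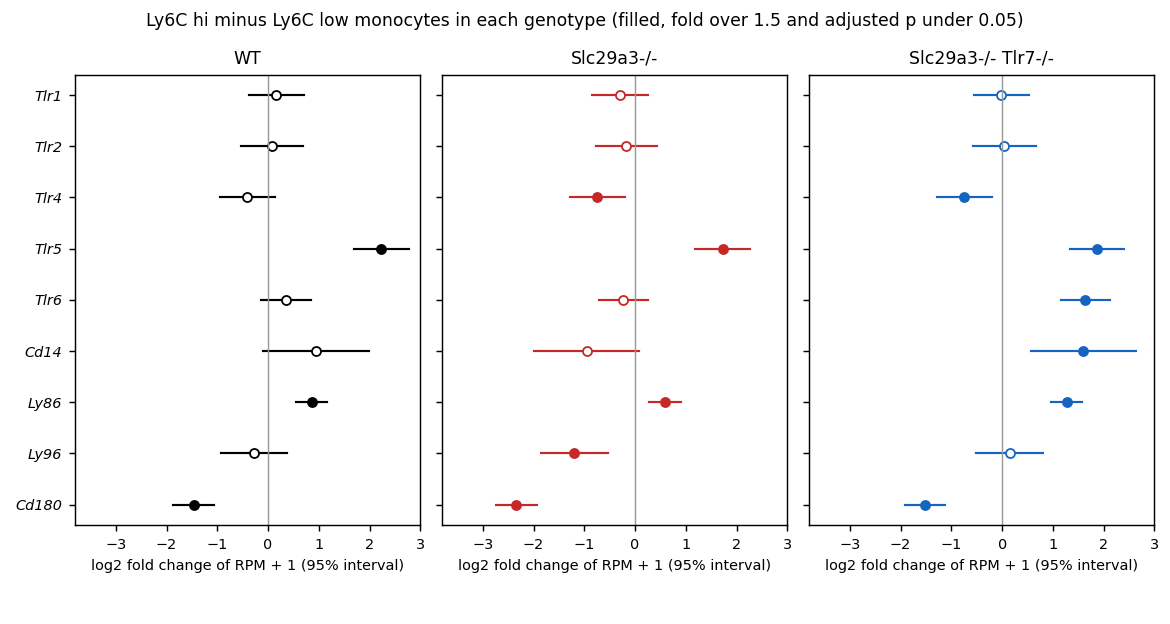
Log2 fold change of RPM + 1 between Ly6C hi and Ly6C low monocytes (horizontal axis, right of 0 where Ly6C hi is higher) for each gene in each genotype, with 95% intervals from limma. Filled points passed the call. Tlr5 and Ly86 lie right of 0 and Cd180 left of 0 in all 3 genotypes, from 2.23 for Tlr5 in WT to -2.35 for Cd180 in Slc29a3-/-.

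The genotypes were compared within each subset. In Ly6C hi monocytes of Slc29a3-/- against WT, 4 of 9 genes were called lower (Tlr5, Tlr6, Cd14, and Cd180) and 0 higher, where 14.3% of 10561 genes were called lower. Against Slc29a3-/- Tlr7-/-, 5 of 9 were lower in Slc29a3-/- (Tlr2, Tlr5, Tlr6, Ly86, and Cd180), where 8.22% of all genes were called lower. In Slc29a3-/- Tlr7-/- against WT, 0 of 9 were called with limma, where 1.42% of all genes were called; at an unadjusted P under 0.05 and a fold over 1.5 it was 1, Cd14, where 12.6% of all genes passed. Without overlap between libraries, 4 genes were lower in Slc29a3-/- than in WT (21.8% of all genes), 2 higher in Slc29a3-/- Tlr7-/- than in WT (5.45%), and 4 lower in Slc29a3-/- than in Slc29a3-/- Tlr7-/- (11.5%). The 3 comparisons share their libraries pairwise.

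The calls in Ly6C low monocytes were in Tlr4, Tlr6, and Cd14. Tlr4 was higher in Slc29a3-/- than in WT (1 of 9, where 1.90% of 10317 genes were called higher). In Slc29a3-/- Tlr7-/- against WT, Tlr4 was higher and Tlr6 and Cd14 were lower (3 of 9, where 8.31% of all genes were called either way). Tlr6 was higher in Slc29a3-/- than in Slc29a3-/- Tlr7-/- (1 of 9, where 1.22% of all genes were called higher). Libraries did not overlap for 1 gene lower in Slc29a3-/- than in WT (11% of all genes), 1 lower in Slc29a3-/- Tlr7-/- than in WT (9.29%), and 2 between the mutants, in opposite directions (11.9% either way). Over the 9 genes the median log2 fold change ranged from -0.79 (Slc29a3-/- against Slc29a3-/- Tlr7-/- in Ly6C hi) to 0.28 (Slc29a3-/- Tlr7-/- against WT in Ly6C hi), beside -0.12 and -0.06 over all genes of the same comparisons. An effect that differed between the subsets (limma) was called for 1 of 9 genes (Cd180) in Slc29a3-/- against WT (8.76% of all genes). It was called for 0 of 9 in Slc29a3-/- Tlr7-/- against WT (0.0634% of all genes). With an unadjusted P under 0.05 (limma) and the same fold threshold, 1 of 9 passed there, Tlr6. Over all 11042 genes, 474 higher and 387 lower passed that unadjusted threshold. In Slc29a3-/- against Slc29a3-/- Tlr7-/-, 3 of 9 were called (Tlr6, Cd14, and Ly86), where 8.94% of all genes were called.

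**Figure D3:**
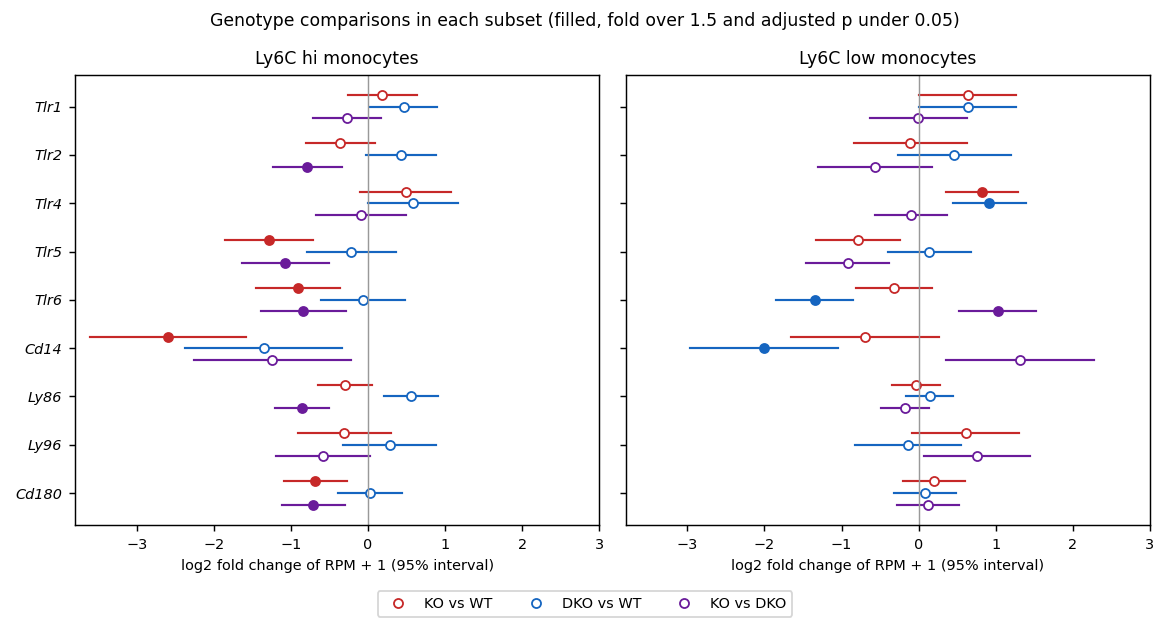
Log2 fold change of RPM + 1 for each gene (horizontal axis, with 95% intervals from limma) in Ly6C hi (left) and Ly6C low (right) monocytes, for Slc29a3-/- against WT (KO vs WT), Slc29a3-/- Tlr7-/- against WT (DKO vs WT), and Slc29a3-/- against Slc29a3-/- Tlr7-/- (KO vs DKO). Filled points passed the call. In Ly6C hi monocytes all filled points lie left of 0, the lowest being Cd14 at -2.60.

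Markers of other cell types moved with some groups. The neutrophil list (10 of 11 genes measured, among them Ly6g, Ltf, and Camp) summed to 42500 to 81600 RPM in Slc29a3-/- Ly6C hi libraries, 13900 to 21700 RPM in WT, and 6360 to 21800 RPM in Slc29a3-/- Tlr7-/-, although cells with Ly6G on their surface had been removed in the sort. Of the 10 measured genes, 6 (Ltf, Camp, Ngp, Lcn2, Ly6g, and Cxcr2) lay above both other genotypes without overlap. Most of the sum was Ngp, with 29100 to 57300 RPM in Slc29a3-/- and 9600 to 16100 RPM in WT. Mmp8 lay below WT (118 to 156 against 232 to 408 RPM), and Mmp9, Csf3r, and Retnlg overlapped with it. The list of granulocyte-monocyte progenitors (6 of 6) summed to 910 to 2940, 346 to 460, and 372 to 946 RPM in the same groups. Slc29a3-/- Ly6C hi replicate 4 had the highest neutrophil sum (81600 RPM) and the lowest levels of Tlr1, Tlr2, Cd14, Ly86, Ly96, and Cd180 in its group. The lists of plasmacytoid dendritic cells (5 of 5) and conventional dendritic cells (7 of 7) summed lower in Slc29a3-/- Ly6C hi libraries than in both other genotypes. They read 92.9 to 171 and 61.1 to 146 RPM in Slc29a3-/- and 218 to 328 and 203 to 255 RPM in WT. They read 231 to 314 and 177 to 290 RPM in Slc29a3-/- Tlr7-/-. The T cell (5 of 6) and NK cell (5 of 5) lists summed to 4.52 to 14.5 and 21.6 to 38.8 RPM in Slc29a3-/-. These sums lay below WT (25.5 and 105 RPM in replicate 4, 139 to 149 and 380 to 421 RPM in replicates 1 to 3). Both overlapped with Slc29a3-/- Tlr7-/- (4.55 to 82.3 and 7.47 to 651 RPM, with replicate 1 the highest in both). The part of these lists in the lower levels of Slc29a3-/- Ly6C hi monocytes was not tested. In bulk samples, fewer cells of a type and less RNA per cell cannot be told apart. In Slc29a3-/- Ly6C low libraries, the erythroid list (3 of 5) summed to 34.0 to 39.6 RPM and the red pulp macrophage list (8 of 8) to 184 to 622 RPM. These sums were 0.561 to 4.98 and 179 to 238 RPM in WT, and 0 to 5.6 and 90 to 238 RPM in Slc29a3-/- Tlr7-/-. Of the red pulp list, C1qb (78.6 to 241 against 53.5 to 74.2 RPM) and Spic (22 to 41.7 against 8.78 to 14.3 RPM) lay above WT. Cd163 lay below WT (0 to 1.34 against 11.9 to 15.3 RPM), and the rest overlapped with WT.

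Tlr5, the flagellin receptor, was the most enriched of the 9 genes in Ly6C hi monocytes and was low in the Slc29a3-/- libraries of that subset. In Ly6C hi monocytes it read 11.4, 12.8, 17.3, and 14.5 RPM in WT replicates 1 to 4, 6.37, 6.25, 3.96, and 4.21 RPM in Slc29a3-/-, and 10.6, 10.1, 21.8, and 8.18 RPM in Slc29a3-/- Tlr7-/-. In Ly6C low monocytes it read 2.03, 2.26, 2.18, and 2.22 RPM in WT, 0.398, 1.36, 0.868, and 0.874 RPM in Slc29a3-/-, and 3.96, 3.02, 1.42, and 2.08 RPM in Slc29a3-/- Tlr7-/-. All Slc29a3-/- libraries lay below all WT and all Slc29a3-/- Tlr7-/- libraries of their subset, and WT replicate 4 lay among the other WT libraries.

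The Tlr5 difference between the subsets was 2.23 ± 0.26 (log2 ± SE, adjusted P = 3.2e-07) in WT, 1.73 ± 0.26 (7.0e-06) in Slc29a3-/-, and 1.88 ± 0.26 (3.6e-06) in Slc29a3-/- Tlr7-/- by limma, and all 3 were called when any 1 library was left out. Tlr5 in Ly6C hi monocytes was lower in Slc29a3-/- than in WT by limma (-1.29 ± 0.27, adjusted P = 0.0033) and lower than in Slc29a3-/- Tlr7-/- (-1.07 ± 0.27, adjusted P = 0.012), also when any 1 library was left out. Against WT replicate 4 alone the difference was -1.35, about as large, and was not called (adjusted P = 0.19, limma with 1 WT library). In Ly6C low monocytes the groups did not overlap in either comparison of Slc29a3-/- (two-sided exact permutation P = 0.029, the smallest that 4 against 4 libraries allow), but neither difference was called (limma, -0.78, adjusted P = 0.094 against WT, and -0.92, adjusted P = 0.090 against Slc29a3-/- Tlr7-/-). With only the groups compared in the fit the former was called (0.033), and without Slc29a3-/- Tlr7-/- replicate 3 the latter (-1.10, adjusted P = 0.047). The log2(RPM + 1) scale understates changes at such low levels. The Slc29a3-/- effect was not shown to differ between the subsets (hi minus low, -0.50, 95% interval -1.26 to 0.26, adjusted P = 0.46).

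Of the lipopeptide receptors, Tlr6 differed between groups most, at low levels. In Ly6C hi monocytes Tlr6, the partner of TLR2 for diacylated lipopeptides, read 4.37, 5.07, 6.37, and 6.63 RPM in WT, 2.39, 3.24, 1.90, and 2.54 RPM in Slc29a3-/-, and 6.78, 2.76, 6.65, and 5.77 RPM in Slc29a3-/- Tlr7-/-. In the Ly6C low subset it read 3.08, 4.32, 5.34, and 3.98 RPM in WT, 2.15, 3.60, 3.23, and 3.65 RPM in Slc29a3-/-, and 1.45, 1.27, 0.631, and 0.799 RPM in Slc29a3-/- Tlr7-/-. The low group was thus Slc29a3-/- among the Ly6C hi and Slc29a3-/- Tlr7-/- among the Ly6C low libraries, and only the latter was separate from both other genotypes of its subset.

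By limma, Tlr6 was lower in Slc29a3-/- than in WT Ly6C hi monocytes (-0.91 ± 0.26, adjusted P = 0.017), and the call was lost without WT replicate 3 (0.053) or Slc29a3-/- replicate 3 (0.051), with no filter (0.054), and against WT replicate 4 alone (-1.13, adjusted P = 0.25). Against Slc29a3-/- Tlr7-/- it was lower by limma (-0.84 ± 0.26, adjusted P = 0.032), a call that was lost with TMM scaling (-0.71, adjusted P = 0.058) and held when Slc29a3-/- replicate 2 or Slc29a3-/- Tlr7-/- replicate 2 was left out, but not when any of the other 6 libraries was (adjusted P = 0.062 to 0.082). In Ly6C low monocytes it was lower in Slc29a3-/- Tlr7-/- than in WT (limma, -1.35 ± 0.23, adjusted P = 0.0084), when any 1 library was left out too, and by as much against WT replicate 4 alone, without a call (-1.31, adjusted P = 0.43). It was also lower than in Slc29a3-/- (limma, 1.03 ± 0.23 for Slc29a3-/- minus Slc29a3-/- Tlr7-/-, adjusted P = 0.034), but not without Slc29a3-/- replicate 2, 3, or 4 or Slc29a3-/- Tlr7-/- replicate 3 or 4 (0.071 to 0.14). Ly6C hi exceeded Ly6C low by 1.63 ± 0.23 in Slc29a3-/- Tlr7-/- (limma, adjusted P = 5.7e-06), and the libraries did not overlap. The difference between Slc29a3-/- and Slc29a3-/- Tlr7-/- itself differed between the subsets (limma interaction, -1.87 ± 0.33, adjusted P = 0.0011), whichever of 16 libraries was left out.

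Tlr2, the shared partner in the lipopeptide receptors, was at its lowest in Slc29a3-/- Ly6C hi monocytes. It read 20.6, 18.5, 22.4, and 21.8 RPM in WT, 16.2, 19.8, 18.4, and 11 RPM in Slc29a3-/-, and 23.0, 40.7, 24.7, and 27.9 RPM in Slc29a3-/- Tlr7-/- libraries of the Ly6C hi subset. All Slc29a3-/- libraries lay below all Slc29a3-/- Tlr7-/- libraries, and they overlapped with WT. The difference from Slc29a3-/- Tlr7-/- was -0.79 ± 0.21 (limma, adjusted P = 0.016), or -0.62 (adjusted P = 0.052) without Slc29a3-/- replicate 4. Among Ly6C low libraries Tlr2 ranged from 14.8 to 26.5 RPM in 11 of 12 libraries, and Slc29a3-/- Tlr7-/- replicate 4 alone reached 69.7 RPM.

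Tlr1, the partner of TLR2 for triacylated lipopeptides, was called in no comparison with all 4 WT libraries at an adjusted P under 0.05 (limma). At an unadjusted P under 0.05 and a fold over 1.5 it passed in Ly6C low monocytes of both mutants against WT (limma, unadjusted P = 0.048 and 0.047). For Slc29a3-/- Tlr7-/- Ly6C hi monocytes against WT it was at 1.38-fold (limma, unadjusted P = 0.043). It ranged from 21.4 to 44.2 RPM over the Ly6C hi and from 17.2 to 53.1 RPM over the Ly6C low libraries. Among WT libraries, replicate 4 was the highest of each subset (37.3 and 43.5 RPM, against 21.6 to 27.7 and 17.2 to 23.1 RPM). In Ly6C low monocytes the log2 difference of Tlr1 from WT was 0.64 in both mutant groups (limma, adjusted P = 0.24 and 0.16), 0.91 and 0.92 against WT replicates 1 to 3 (adjusted P = 0.030 and 0.026), and -0.19 in both against WT replicate 4 (0.94 and 0.85).

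Tlr4, the lipopolysaccharide receptor, was higher in Ly6C low than in Ly6C hi monocytes of both mutants. In the Ly6C hi subset it read 38.4, 41.6, 38.2, and 92.9 RPM in WT, 60.7, 59.0, 81.9, and 76.9 RPM in Slc29a3-/-, and 53.7, 115, 70.5, and 68.0 RPM in Slc29a3-/- Tlr7-/-. The Ly6C low libraries read 52.9, 51.2, 59.5, and 112 RPM in WT, 112, 105, 117, and 132 RPM in Slc29a3-/-, and 125, 103, 125, and 149 RPM in Slc29a3-/- Tlr7-/-. WT replicate 4 was far above the other WT libraries in both subsets and inside the range of the mutants.

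Between the subsets (hi minus low), Tlr4 differed by -0.41 in WT (limma, adjusted P = 0.26), or -0.72 (0.024) without Ly6C hi WT replicate 4. It was lower in the Ly6C hi library of the same number for all 4 WT numbers, which were not shown to pair libraries. With the replicate block the difference was not called (limma, adjusted P = 0.11). It differed by -0.74 ± 0.26 in Slc29a3-/- (limma, adjusted P = 0.026) and by -0.74 ± 0.26 in Slc29a3-/- Tlr7-/- (adjusted P = 0.031), each of which lost the call with no filter (0.059 and 0.070). Leaving out Ly6C hi replicate 1 or 2 or Ly6C low replicate 3 or 4 of Slc29a3-/- ended the former call (adjusted P = 0.050 to 0.070), and leaving out any library of Slc29a3-/- Tlr7-/- except replicate 2 of each subset ended the latter (0.051 to 0.11). Tlr4 in Ly6C low monocytes was higher than in WT by 0.82 ± 0.22 in Slc29a3-/- (limma, adjusted P = 0.048) and by 0.92 ± 0.22 in Slc29a3-/- Tlr7-/- (adjusted P = 0.027). These values were 1.08 and 1.18 against WT replicates 1 to 3 (adjusted P = 0.00058 and 0.00038) and 0.05 and 0.14 against WT replicate 4 (0.98 and 0.79). In Slc29a3-/-, leaving out any library but WT replicate 4 ended the call (0.097 to 0.16), and in Slc29a3-/- Tlr7-/- leaving out WT replicate 1, 2, or 3 or Slc29a3-/- Tlr7-/- replicate 3 did (0.063 to 0.098). The Tlr4 difference of Slc29a3-/- from WT in Ly6C hi monocytes was 0.49 (adjusted P = 0.20), 0.79 against WT replicates 1 to 3 (adjusted P = 0.014), and -0.43 against WT replicate 4 (0.58).

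Cd14 (chr18:36725067-36726798, minus strand), which hands lipopolysaccharide to TLR4, showed the largest difference between genotypes of the 9 genes, and it was also the gene on which the WT libraries disagreed most. The Ly6C hi libraries read 227, 245, 230, and 48.8 RPM in WT, 22.7, 27.4, 30, and 22.2 RPM in Slc29a3-/-, and 25.3, 69.2, 116, and 69.0 RPM in Slc29a3-/- Tlr7-/-. In the Ly6C low subset it read 95.3, 147, 110, and 28.5 RPM in WT, 28.3, 50.6, 60.0, and 73.4 RPM in Slc29a3-/-, and 13.1, 36.8, 18.9, and 16 RPM in Slc29a3-/- Tlr7-/-. All Slc29a3-/- Ly6C hi libraries lay below all WT libraries, replicate 4 included.

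Cd14 in Ly6C hi monocytes was 6.05-fold lower in Slc29a3-/- than in WT on the RPM + 1 scale (limma, log2 -2.60 ± 0.48, adjusted P = 0.0016). The difference was -3.16 (adjusted P = 3.9e-05) against WT replicates 1 to 3 and -0.92 (0.45) against WT replicate 4. For Slc29a3-/- Tlr7-/- against WT it was -1.35 (limma, adjusted P = 0.12), -1.91 (0.0039) against WT replicates 1 to 3, and 0.32 (1.0) against WT replicate 4. For Slc29a3-/- Ly6C low monocytes it was -0.69 (0.42), -1.19 (0.038), and 0.79 (0.78) under the same choices of WT, and the effect of Slc29a3-/- against WT was not shown to differ between the subsets (limma interaction, -1.90, adjusted P = 0.10, but -2.46 and 0.014 without Ly6C hi WT replicate 4). Among Ly6C low libraries Cd14 was lower in Slc29a3-/- Tlr7-/- than in WT (limma, -2.00 ± 0.45, adjusted P = 0.022), but by -0.52 (0.69) against WT replicate 4, and the call was lost without WT replicate 1, 2, or 3 or Slc29a3-/- Tlr7-/- replicate 3 (0.052 to 0.080) and with only these groups in the fit (0.081). Between Slc29a3-/- and Slc29a3-/- Tlr7-/-, which share their barcode range, the differences of -1.24 (Ly6C hi) and 1.31 (Ly6C low subset) were not called (limma, adjusted P = 0.078 and 0.16), although the former was without Slc29a3-/- Tlr7-/- replicate 1 (-1.66, adjusted P = 0.017) and with only the groups compared (0.035). The difference between these differences was called (limma interaction, -2.55 ± 0.71, adjusted P = 0.025), and was lost without Slc29a3-/- Ly6C hi replicate 4, Ly6C low replicate 3 or 4, or Slc29a3-/- Tlr7-/- Ly6C hi replicate 3 (0.051 to 0.064).

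Replicate numbers were not shown to pair libraries. Within WT, Cd14 was higher in the Ly6C hi than in the Ly6C low library of the same number for all 4 numbers. The difference was 0.95 ± 0.50 (limma, adjusted P = 0.17) and was called with the replicate number as a block (0.95, adjusted P = 0.011) or without Ly6C hi WT replicate 4 (1.51, adjusted P = 0.015). In Slc29a3-/- Tlr7-/-, Ly6C hi exceeded Ly6C low by 1.60 ± 0.50 (limma, adjusted P = 0.016), or 1.29 (0.070) without Ly6C hi replicate 3.

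Ly96, whose product MD-2 forms the lipopolysaccharide pocket of TLR4, was lower in Ly6C hi than in Ly6C low monocytes of Slc29a3-/- mice. It read 21.7, 21.8, 20.7, and 8.5 RPM in the former and 38.2, 35.7, 44.3, and 44.3 RPM in the latter, without overlap. The difference was -1.20 ± 0.32 (limma, adjusted P = 0.0039) and -0.89 to -1.31 when any 1 library was left out, always called. In WT the subsets ranged from 17.6 to 31.4 and from 18.7 to 36.3 RPM, and in Slc29a3-/- Tlr7-/- from 20.8 to 34.9 and from 10.1 to 36.6 RPM, with overlap. Ly96 was lower in the Ly6C hi library of the same number for all 4 WT numbers, which were not shown to pair libraries. With the replicate block the difference of -0.28 was not called (limma, adjusted P = 0.48).

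Cd180 and Ly86, whose products RP105 and MD-1 form 1 complex, differed between the subsets in opposite directions. Cd180 read 144, 141, 145, and 209 RPM in WT, 123, 112, 99.7, and 66.7 RPM in Slc29a3-/-, and 205, 148, 152, and 144 RPM in Slc29a3-/- Tlr7-/- among the Ly6C hi libraries. The Ly6C low libraries read 341, 419, 383, and 666 RPM in WT, 508, 515, 524, and 463 RPM in Slc29a3-/-, and 564, 453, 433, and 410 RPM in Slc29a3-/- Tlr7-/-. All Ly6C low libraries lay above all Ly6C hi libraries, and the Slc29a3-/- Ly6C hi libraries lay below those of both other genotypes.

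The Cd180 difference between the subsets (hi minus low) was -1.47 ± 0.20 in WT (limma, adjusted P = 2.2e-06), -2.35 ± 0.20 in Slc29a3-/- (4.8e-10), and -1.52 ± 0.20 in Slc29a3-/- Tlr7-/- (1.1e-06), and each was called when any 1 library was left out. Of B cells, which express Cd180 at high levels, the marker list (8 of 9) summed to 15.4 to 61.5 RPM over all 24 libraries. Among Ly6C hi libraries it summed to 15.4 to 20.9 RPM in Slc29a3-/-, 31.8 to 40.7 RPM in WT, and 15.4 to 39 RPM in Slc29a3-/- Tlr7-/-. Its part in the level of Cd180 was not tested. Cd180 in Ly6C hi monocytes was lower in Slc29a3-/- than in WT (limma, -0.68 ± 0.19, adjusted P = 0.017) and than in Slc29a3-/- Tlr7-/- (-0.71 ± 0.19, adjusted P = 0.018), both close to the fold threshold. In these comparisons the median of all genes was at -0.14 and -0.12 on the RPM scale and at 0.01 and 0.03 after TMM scaling, with which Cd180 differed by -0.53 and -0.55, below a fold of 1.5 (adjusted P = 0.035 and 0.037). Without Slc29a3-/- replicate 4 the differences were -0.50 (0.049) and -0.53 (0.057), without WT replicate 4 the former was -0.55 (0.045), against WT replicate 4 alone it was -1.09 (0.11), and without Slc29a3-/- Tlr7-/- replicate 1 the latter was -0.59 (0.051), none of them called. The Slc29a3-/- effect against WT differed between the subsets (limma interaction, -0.88 ± 0.28, adjusted P = 0.046), a call that TMM scaling (-0.70, adjusted P = 0.058) and 13 of 16 omissions of 1 library ended.

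Ly86 was higher in Ly6C hi monocytes and highest in those of Slc29a3-/- Tlr7-/- mice. In the Ly6C hi subset it read 104, 111, 110, and 125 RPM in WT, 95.3, 113, 104, and 60.9 RPM in Slc29a3-/-, and 162, 165, 175, and 161 RPM in Slc29a3-/- Tlr7-/-. In the Ly6C low subset it read 60.2, 59.7, 53.9, and 73.6 RPM in WT, 61.4, 57.4, 55.0, and 67.2 RPM in Slc29a3-/-, and 60.4, 73.5, 73.4, and 65.8 RPM in Slc29a3-/- Tlr7-/-. The Slc29a3-/- Tlr7-/- Ly6C hi libraries lay above all others, whereas the Ly6C low groups overlapped.

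By limma, Ly86 differed between the subsets by 0.86 ± 0.15 in WT (adjusted P = 8.2e-05), 0.59 ± 0.15 in Slc29a3-/- (0.0026), and 1.27 ± 0.15 in Slc29a3-/- Tlr7-/- (3.1e-07). The WT difference was 0.76 (0.23) in replicate 4 alone, and that in Slc29a3-/-, at the fold threshold, fell under it in 5 of 8 omissions of 1 library (0.49 to 0.57, without Ly6C hi replicate 1, 2, or 3 or Ly6C low replicate 2 or 3). Ly86 in Ly6C hi monocytes was lower in Slc29a3-/- than in Slc29a3-/- Tlr7-/- (limma, -0.86 ± 0.16, adjusted P = 0.0022), and was so called when any 1 library was left out. Slc29a3-/- Tlr7-/- against WT was not called (0.56, adjusted P = 0.078), although the libraries did not overlap (two-sided exact permutation P = 0.029), and it was 0.61 (adjusted P = 0.041) against WT replicates 1 to 3 and 0.40 against WT replicate 4. The difference between Slc29a3-/- and Slc29a3-/- Tlr7-/- was larger in Ly6C hi than in Ly6C low monocytes (limma interaction, -0.68 ± 0.21, adjusted P = 0.045), but TMM scaling (-0.46, adjusted P = 0.13), the no-filter table (0.064), and 13 of 16 omissions of 1 library (-0.49 without Slc29a3-/- Ly6C hi replicate 4, adjusted P = 0.099) ended the call.

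**Figure D4:**
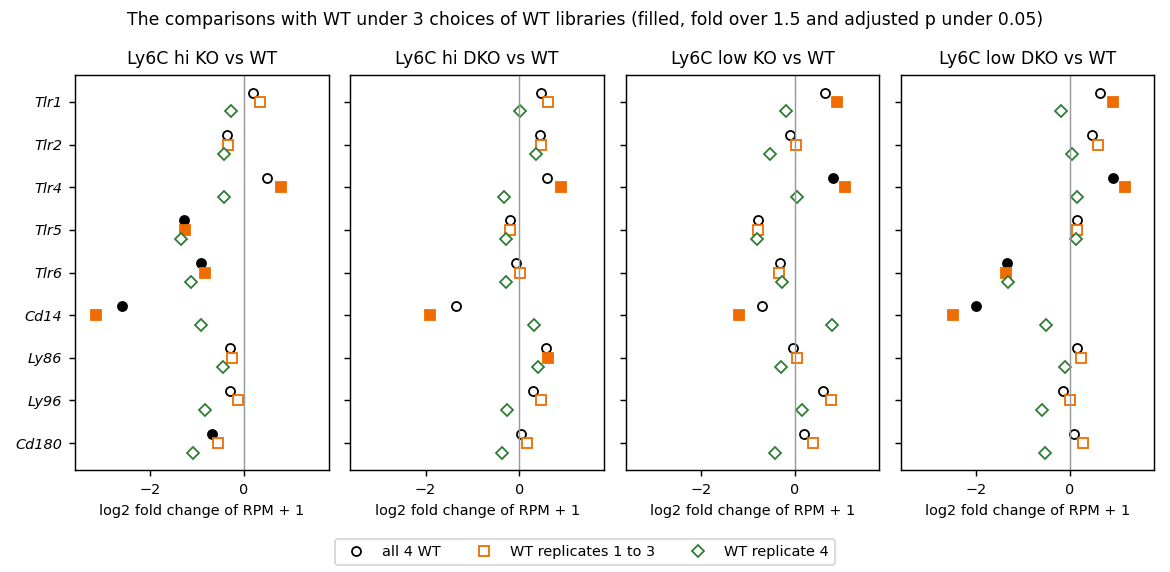
Log2 fold change of RPM + 1 of each gene (horizontal axis) in the 4 comparisons with WT, for all 4 WT libraries (circles), WT replicates 1 to 3 (squares), and WT replicate 4 (diamonds), without error bars. Filled points passed the call, which no diamond did. Tlr5 moved little between the 3 choices, from -1.35 to -1.27 in Ly6C hi Slc29a3-/- monocytes, and Cd14 moved most, from -3.16 to -0.92 there.

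Beside the 9 genes, 51 genes of the signaling pathway were listed, of which 49 were measured (all but Nfkb1 and Socs1). Of these, 46 passed the filter for the Ly6C hi fit and 47 that for the Ly6C low fit. In Ly6C hi monocytes of Slc29a3-/- against WT, 2 were called higher and 8 lower (4.35% and 17.4%, beside 8.15% and 14.3% of all genes), with a median log2 fold change of -0.20 over the list beside -0.14 over all genes. The higher ones were Lbp, the serum protein that brings lipopolysaccharide to CD14 (183.9 against 50.81 RPM, limma, 1.79 ± 0.20, adjusted P = 0.00011), and Tirap, an adaptor of TLR2 and TLR4 (0.79 ± 0.18, adjusted P = 0.0051). The most reduced were Tnfaip3, which restrains NF-kB (-2.95 ± 0.63, adjusted P = 0.0037), and Irf8, a transcription factor of monocytes and dendritic cells (-1.43 ± 0.18, adjusted P = 0.00016). Tnfaip3 followed the WT libraries as Cd14 did, with 280, 342, 268, and 37.6 RPM in WT and 15.8 to 28.1 RPM in Slc29a3-/-.

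Against Slc29a3-/- Tlr7-/-, 2.17% of the 46 were called higher and 8.7% lower, beside 9% and 8.22% of all genes. There 1 was higher (Lbp, 1.85 ± 0.20, limma, adjusted P = 9.6e-05) and 4 were lower, the most reduced being Irf8 (-0.99 ± 0.18, adjusted P = 0.0014) and Ikbkb, a kinase that activates NF-kB (-0.82 ± 0.22, adjusted P = 0.016). Slc29a3-/- Tlr7-/- against WT gave 0 calls by limma in the list in Ly6C hi monocytes, where 0.312% of all genes were called higher and 1.11% lower. At an unadjusted P under 0.05 and a fold over 1.5 (limma), 1 of the 46 was higher and 6 lower, beside 329 and 997 of all 10561 genes. Lbp thus stood at 127 to 234 RPM in the Slc29a3-/- libraries and at 39.6 to 63.8 RPM in the other 8 Ly6C hi libraries. In Ly6C low monocytes Lbp was lower in Slc29a3-/- than in WT, without overlap and without a call (1.57 against 4.14 RPM, limma, -1.02 ± 0.28, adjusted P = 0.051). The difference of Slc29a3-/- from WT thus had opposite signs in the subsets (limma interaction, 2.81 ± 0.34, adjusted P = 2.5e-05).

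Of 47 pathway genes in Ly6C low monocytes, 2 were higher in Slc29a3-/- than in WT (Map3k8, a kinase, 0.72 ± 0.15, and Irak3, a brake on TLR signaling, 0.68 ± 0.15; limma, adjusted P = 0.014 and 0.020) and 3 lower, led by Clec7a, the beta-glucan receptor (-1.56 ± 0.16, adjusted P = 4.5e-05), and Cd36, a scavenger receptor that assists TLR2 with TLR6 (-1.47 ± 0.26, adjusted P = 0.0057). These were 4.26% and 6.38% of the list, beside 1.90% and 2.53% of all genes. In Slc29a3-/- Tlr7-/- against WT, 0 were higher and 5 lower (10.6%, beside 2.28% higher and 6.03% lower of all genes), led by Tnfaip3 (-2.18 ± 0.56, adjusted P = 0.032) and Nfkbia, an inhibitor of NF-kB (-1.40 ± 0.34, adjusted P = 0.030), which read 34.5 and 365 RPM in WT replicate 4 and 237 to 339 and 1050 to 1290 RPM in the other WT libraries. Between Slc29a3-/- and Slc29a3-/- Tlr7-/-, 0 were higher and 2 lower, Cd36 (-1.23 ± 0.26, adjusted P = 0.021) and Clec7a (-0.97 ± 0.16, adjusted P = 0.0042), or 4.26% of the list beside 1.22% higher and 0.708% lower of all genes.

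Between the subsets, 5 pathway genes were higher and 9 lower in Ly6C hi than in Ly6C low monocytes of WT, 4 and 15 in Slc29a3-/-, and 7 and 6 in Slc29a3-/- Tlr7-/-. As shares of the list these were 10.6% and 19.1%, 8.51% and 31.9%, and 14.9% and 12.8%, beside 17.5% and 8.46%, 16.5% and 18.5%, and 18.7% and 9.64% of all genes. The largest differences in WT and in Slc29a3-/- Tlr7-/- were as follows. Lbp (3.35 ± 0.24 and 4.16 ± 0.24; limma, adjusted P = 1.8e-10 and 2.9e-12) and Ikbke, a kinase of the TRIF branch (1.91 ± 0.33 and 2.73 ± 0.33; 7.3e-05 and 4.5e-07), were higher, and Cd36 (-4.82 ± 0.28 and -4.45 ± 0.28; 4.6e-12 and 9.8e-12) and Pik3ap1, an adaptor (-2.26 ± 0.20 and -2.51 ± 0.20; 4.6e-09 and 5.4e-10), were lower. In Slc29a3-/- the highest were Lbp (6.16 ± 0.24, adjusted P = 2.2e-15) and Clec7a (1.68 ± 0.15, adjusted P = 1.6e-09), and the lowest Cd36 (-3.87 ± 0.28, adjusted P = 4.7e-11) and Pik3ap1 (-2.41 ± 0.20, adjusted P = 5.0e-10).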

How the data were processed

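RNA of sorted monocytes was amplified with the Ion AmpliSeq Transcriptome Mouse kit from 1 ng and sequenced on the Ion Proton. The authors deposited 1 table of RPM (reads scaled to 1000000 per library) for 23930 amplicons on mm10. Their methods name the AmpliSeqRNA plug-in of the Torrent Suite, Cutadapt, STAR, HTSeq, and RLE normalization with DESeq2, but not the step that wrote the table. The table gives 0 reads as 0.0001, which was set to 0, and 27 gene names that had turned into dates were repaired. Samples were grouped by their labels, 4 in each of 6 groups.

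RPM were used without further scaling. Kept were genes that reached 1 RPM in 4 or more libraries of a fit, and log2(RPM + 1) was fitted with limma 3.58.1 (eBayes with trend) in R 4.3.3, over 12 libraries for genotypes and 24 for subsets and interactions. Fits were tested on simulated data. Groups of 4 were also compared by exact permutation tests. The 9 genes and all lists were chosen with earlier results of these data known. Named pathway genes are, per comparison, the 2 called with the largest rise and the 2 with the largest fall at a mean of at least 10 RPM. Genes named for other comparisons or as cell type markers were given as levels. Same-numbered libraries correlated in their deviations from the group means for every number only between the WT subsets (r = 0.26 to 0.62), which the study's labels do not explain. Other pairs of groups gave r from -0.46 to 0.34. WT replicate 4 stood apart in both subsets, so the WT correlation cannot show that the numbers pair libraries. For 2 of 4 WT Ly6C hi libraries the best correlated Ly6C low library had the same number, and for 2 of 4 in each mutant. Alternatives were RLE or unweighted TMM scaling, every gene kept, a mean of 10 RPM or more, a pseudocount of 0.1, only the groups compared, the replicate block, an unadjusted P, each library left out, and WT replicate 4 alone. WT replicates 1 to 3 alone was added after seeing the data. Figures were made with Python 3.11.15 and matplotlib 3.10.9.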

Additional observations from a re-analysis of the deposited data

Results flagged for a closer look

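In 8 of 54 groups of 4 libraries, the highest or lowest library was separated from the rest by a larger share of the group's range than the 95% limit of Dixon's test allows, where chance flags about 1 in 20. In 4 of the 8 the library was Ly6C hi WT replicate 4: the gap was 0.938 of the range for Tlr4 (92.9 RPM), 0.908 for Cd14 (48.8 RPM), 0.861 for Ly96 (31.4 RPM), and 0.946 for Cd180 (209 RPM). Ly6C low WT replicate 4 stood apart in Tlr4 (0.864, 112 RPM). The others were Tlr2 in Ly6C low Slc29a3-/- Tlr7-/- replicate 4 (0.884, 69.7 RPM), Ly96 in Ly6C hi Slc29a3-/- replicate 4 (0.915, 8.5 RPM), and Cd180 in Ly6C hi Slc29a3-/- Tlr7-/- replicate 1 (0.869, 205 RPM).

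A genotype difference differed between the subsets in 4 cases (limma interaction, Ly6C hi minus Ly6C low). These were Cd180 for Slc29a3-/- against WT (-0.88), and for Slc29a3-/- against Slc29a3-/- Tlr7-/- Tlr6 (-1.87), Cd14 (-2.55), and Ly86 (-0.68). For Tlr6 and Cd14 the difference between the mutants had opposite signs in the subsets.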

How the results depend on the processing

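For 51 log2 differences of single genes that were called in some setting, leaving out 1 library gained 17 calls and lost 79 over all omissions, and the other settings gained 28 and lost 42. Without Ly6C hi Slc29a3-/- replicate 1 or Ly6C low Slc29a3-/- Tlr7-/- replicate 1, the interaction of Slc29a3-/- against Slc29a3-/- Tlr7-/- was also called for Cd180 (-0.94 and -0.93; -0.83 with all), without Ly6C low Slc29a3-/- Tlr7-/- replicate 1 or 2 for Ly96 (-1.55 and -1.51; -1.34 with all), and without Ly6C hi Slc29a3-/- Tlr7-/- replicate 2 that of Slc29a3-/- Tlr7-/- against WT for Tlr6 (1.52; 1.28 with all). Directions of these 51 were kept in all settings but WT replicate 4 alone, which turned Tlr4 in Ly6C hi (-0.43 for Slc29a3-/- and -0.33 for Slc29a3-/- Tlr7-/- against WT), Cd14 for Slc29a3-/- Tlr7-/- in Ly6C hi (0.32) and for Slc29a3-/- in Ly6C low (0.79), and Tlr1 in Ly6C low (-0.19 for both mutants). With this lone library, assumed to vary like the other groups, 0 of 9 genes were called in Slc29a3-/- against WT in Ly6C hi (4 with all WT), 0 in Ly6C low for both mutants (1 and 3), and 0 for the interaction of Slc29a3-/- against WT (1). With WT replicates 1 to 3 the counts were 3 for Slc29a3-/- Tlr7-/- against WT in Ly6C hi (0), 3 for Slc29a3-/- against WT in Ly6C low (1), and 2 for that interaction. The share of all genes called under the same choice of WT libraries is not given here. These counts therefore do not show whether the 9 genes changed more than other genes.

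The study's unadjusted threshold gave 1 for Slc29a3-/- Tlr7-/- against WT in Ly6C hi, 3 for Slc29a3-/- against WT and 4 against Slc29a3-/- Tlr7-/- in Ly6C low, and 2, 1, and 5 for the interactions of Slc29a3-/- against WT, Slc29a3-/- Tlr7-/- against WT, and Slc29a3-/- against Slc29a3-/- Tlr7-/-. Over all genes, 329 higher and 997 lower of 10561 passed it in the Ly6C hi comparison. In the 2 Ly6C low comparisons 634 and 727, and 1113 and 301, of 10317 did. For the 3 interactions 877 and 1356, 474 and 387, and 891 and 1607 of 11042 did. TMM scaling gave 3 for Slc29a3-/- against Slc29a3-/- Tlr7-/- in Ly6C hi (5). No filter and a mean of at least 10 RPM gave 0 for both comparisons of Slc29a3-/- in Ly6C low, the latter with Tlr5 and Tlr6 not tested, and no filter gave 1 for the interaction of Slc29a3-/- against Slc29a3-/- Tlr7-/- (3). A pseudocount of 0.1 gave 0 for Slc29a3-/- against WT in Ly6C low. These filters, this pseudocount, TMM, and RLE gave 0 for the interaction of Slc29a3-/- against WT. With only the groups compared, Ly6C low gave 2 for Slc29a3-/- against WT, 1 for Slc29a3-/- Tlr7-/- against WT (3), and 0 for Slc29a3-/- against Slc29a3-/- Tlr7-/-. For the scalings, filters, pseudocount, and fits of only the groups compared, the share of all genes called is not given here. The cause of these changes was not tested.

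The replicate numbers were not shown to pair libraries. With the replicate block, Slc29a3-/- against Slc29a3-/- Tlr7-/- in Ly6C low gave 0 (1) and the interaction of Slc29a3-/- against WT gave 2 (1). The share of all genes called with the block is not given here either.

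Leaving out 1 library gave 3 to 4 calls for Slc29a3-/- against WT, 0 to 3 for Slc29a3-/- Tlr7-/- against WT, and 2 to 5 for Slc29a3-/- against Slc29a3-/- Tlr7-/- in Ly6C hi, and 0 to 3, 1 to 4, and 0 to 1 in Ly6C low. Between the subsets it gave 3 to 5 in WT, 3 to 5 in Slc29a3-/-, and 4 to 6 in Slc29a3-/- Tlr7-/-, and for the interactions 0 to 1, 0 to 1, and 1 to 4. For these omissions, too, the share of all genes called is not given here. Whether the surface receptor genes gained or lost calls more often than other genes is therefore not shown. A planned count model on reads rebuilt from the RPM steps was not run, because the table gives no counts. At levels of about 1 RPM, as for Tlr5 and Tlr6 in some Ly6C low groups, counting error limits precision.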

Other observations

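The genes whose pattern over the 24 libraries was most like that of a surface receptor gene were found by the root mean square difference of centred log2(RPM + 1) among 7492 genes with a mean of at least 10 RPM, as a description. For Cd14 they were Crim1, Junb, and Ngfrap1 (0.70 each), for Tlr5 Inf2, Steap3, and Ninj1 (0.41 to 0.47), for Ly86 Capn2, Bscl2, and Anxa5 (0.19 to 0.22), and for Cd180 Evl, Gpcpd1, and Sfi1 (0.24 to 0.28). The nearest gene was Nlrc4 for Tlr4 (0.26), Wdsub1 for Tlr6 (0.33), Zeb2 for Tlr2 (0.26), Rnf149 for Ly96 (0.22), and Pot1a for Tlr1 (0.22). The receptor genes themselves varied with an SD of 1.21 (Cd14), 1.13 (Tlr5), 0.95 (Cd180), 0.64 (Tlr6), 0.58 (Tlr4), 0.56 (Ly96), 0.55 (Ly86), 0.48 (Tlr2), and 0.43 (Tlr1). A small difference for a gene that varied little is therefore no sign of a closer match. The points share genotype and subset by fours, and WT replicates 1 to 3 carry another barcode range than the rest.

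Of 7 endosomal receptor genes, 6 (all but Tlr13) lay in Slc29a3-/- Ly6C hi libraries wholly below those of Slc29a3-/- Tlr7-/-, and 3 (Tlr3, Tlr8, and Tlr12) also below WT. Tlr9 read 80.6 to 164 RPM in Slc29a3-/-, 126 to 235 RPM in WT, and 169 to 277 RPM in Slc29a3-/- Tlr7-/- Ly6C hi monocytes, and Tlr12 read 0.079 to 2.15, 2.65 to 4.58, and 2.54 to 4.51 RPM. The 6 include Tlr7, which is itself mutated in Slc29a3-/- Tlr7-/- mice. Of the 9 surface receptor genes, 4 (Tlr2, Tlr5, Ly86, and Cd180) lay below Slc29a3-/- Tlr7-/- without overlap. Of all 10561 genes tested in Ly6C hi, 11.5% lay in Slc29a3-/- below Slc29a3-/- Tlr7-/- without overlap, and 21.8% below WT. Tlr13 read 44.8 to 47.1 RPM in Ly6C hi WT replicates 1 to 3 and 142 RPM in replicate 4, as Tlr4 was higher there.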
